A study of Mus musculus with 4 samples.

Results

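The clustered protocadherins are the genes Pcdha, Pcdhb and Pcdhg, which lie one after another on mouse chromosome 18. They were taken here as the protein-coding genes of GENCODE release M21 whose symbol is Pcdha, Pcdhb or Pcdhg with a number, or Pcdhac, Pcdhga, Pcdhgb or Pcdhgc with a number. This gave 57 of 21853 protein-coding genes, with 14 alpha, 22 beta and 21 gamma genes. The release gives the symbol Pcdha11 to 2 different genes, and both were kept. All 57 are on the plus strand of chromosome 18, and together they cover chr18:36929285-37841873 in GRCm38 (mm10), counted from 1 kb before the first start.

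Binding of Foxr2, a forkhead transcription factor, was measured by CUT&RUN, in which an antibody guides a nuclease that cuts out the DNA bound by its target. The antibody recognised V5, a short tag. In the Foxr2 p53LOF group the tag was on the Foxr2 vector: a piggyBac transposon that carried the gene under the CAG promoter was electroporated in utero together with Cas9 and a guide against Trp53, and a neurosphere line was grown from a brain tumor that followed. The V5 control group came from a separate electroporation model of genotype H3.3G34R that lacked the tag, and the sources do not say whether its replicates came from 1 line or 2. The cells of both groups were labelled C57BL/6J and were fixed with 0.1% formaldehyde for 1 minute. Each group had 2 libraries. The methods speak of a single Foxr2 p53LOF line, and no source says that the replicates were separate cultures, so differences between groups are set against the spread between these samples, which may be technical. The groups differ in the tumor model as well as in the tag, and the 2 cannot be told apart.

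Clustered protocadherins are cell surface proteins of the cadherin superfamily through which a neuron recognises its own branches. Most of them are made from one large first exon, called the variable exon, which has its own promoter. In the alpha and gamma groups the variable exon is spliced to a set of shared exons, the constant exons, that encode the common cytoplasmic end, whereas the beta genes have no constant exons. Each neuron uses a few of the alternate promoters, a choice that involves DNA methylation, the insulator protein CTCF and the cohesin complex, while the C-type genes Pcdhac1, Pcdhac2, Pcdhgc3, Pcdhgc4 and Pcdhgc5 follow other rules and are used more broadly.

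The deposited lists held 31909 and 38580 peaks in Foxr2 p53LOF replicates 1 and 2, and 308 and 124 peaks in V5 control replicates 1 and 2. A peak's fold is the number of fragments at its highest point, the summit, relative to that library's own background. The lowest fold in a list was 3.09 in Foxr2 replicate 1 (6 fragments) and 2.96 in replicate 2 (8 fragments), against 4.08 (10 fragments) and 4.87 (7 fragments) in the controls. A start with no peak had a signal too low to be called at this depth, which is not the same as no binding. Peaks with a fold of 6 or less, a −log10 q of 6 or less, a length of 10000 bp or more or an overlap with a control peak were dropped, and a stretch covered by the remaining peaks of both Foxr2 replicates was called a reproducible site.

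Few starts of clustered protocadherins carried a peak. In replicate 1, 5 of the 57 genes (8.77%) had a deposited peak within 1 kb of the start of the variable exon, whereas 50.8% of all protein-coding genes did. In replicate 2, 4 of 57 (7.02%) had one, against 51.8% of all genes. Neither control replicate had a peak at any of the 57 starts, and over all genes the controls had one at 0.114% and 0.0824%. The mean was 4.5 ± 0.707 genes (SD, n = 2) in the Foxr2 group and 0 in the control group, and the groups did not overlap. The exact two-sided permutation test over the 4 libraries gave p = 0.333, which is the smallest value that 2 libraries against 2 can give. A peak in both Foxr2 replicates was found at 3 genes, Pcdhac2, Pcdhb16 and Pcdhgc3, which is 5.26% of the 57 against 48.9% of all genes.

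A single gene, Pcdhgc3, had a reproducible site at its start. That is 1.75% of the clustered protocadherins, against 37.3% of all protein-coding genes and 42.3% of the 454 other protein-coding genes of chromosome 18. At 51 of the 57 starts no library had a peak within 1 kb.

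**Figure D1:**
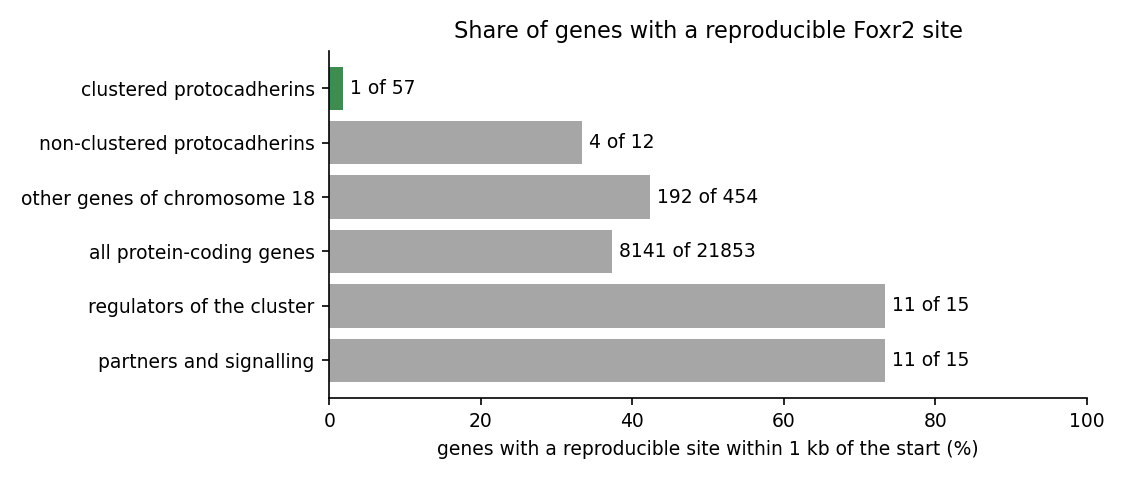
Bars give the percentage of genes in each group with a reproducible Foxr2 site within 1 kb of the start, and the text beside each bar gives the number of genes. The clustered protocadherins (green) stand at 1 of 57, below the 37.3% of all protein-coding genes.

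The alpha genes come first in the cluster. Over the first exons of Pcdha1 to Pcdha12, a stretch of 93.3 kb, replicate 1 had no peak. Replicate 2 had 1 peak there, at Pcdha7, with a fold of 3.94 from 11 fragments and a summit 118 bp after the start. Replicate 1 was without a peak across 286 kb that took in the starts of all 12 of these genes. The nearest peak to a start in this stretch other than that of Pcdha7 was 6171 bp from Pcdha6, in replicate 2.

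The C-type alpha genes Pcdhac1 and Pcdhac2, which follow the other alpha genes at a distance, had weak peaks. Pcdhac1 had a peak in replicate 1 alone, with a fold of 3.98 from 8 fragments and a summit at -573 bp relative to the start. Pcdhac2 had a peak in both replicates, with folds of 3.53 (7 fragments) and 2.96 (8 fragments) and summits 233 and 104 bp after the start, inside its variable exon. None of these peaks reached the minimum fold for a site. The value of 2.96 is the lowest fold in the whole list of replicate 2.

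The constant exons of the alpha genes lay under no peak in either replicate. A peak in both replicates stood in the intron before the last alpha constant exon, at chr18:37177735-37178668 with a fold of 5.30 in replicate 1 and at chr18:37177318-37179015 with a fold of 4.60 in replicate 2. Another pair lay between the last alpha exon and the first beta gene, with folds of 4.86 in replicate 1 and 6.24 in replicate 2, where only the second passed the filters. The region from the first alpha start to the first beta gene therefore held peaks in both replicates and no reproducible site.

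Among the beta genes, spread over 260 kb, 2 of 22 had a peak within 1 kb. Pcdhb16 had a peak in both replicates, with folds of 3.53 (7 fragments) and 3.94 (11 fragments) and summits 309 and 113 bp after the start. Pcdhb12 had a peak in replicate 1 alone, with a fold of 3.53 from 7 fragments and a summit at -607 bp relative to the start. Both were far under the typical fold at a start, which was 8.84 in replicate 1 (median of the 11102 genes with a peak there) and 9.86 in replicate 2 (11320 genes). Pcdhb15, which lies just before Pcdhb16, was 4274 bp from a peak, and Pcdhb17 and Pcdhb13 were 6539 and 7131 bp from one. The other beta starts lay further away, and replicate 2 had a stretch of 259 kb with 15 beta starts and no peak.

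Between the beta and gamma genes lie Slc25a2, a mitochondrial carrier, and Taf7, a subunit of the general transcription factor TFIID. Slc25a2 had no peak. The start of Taf7 had a fold of 7.07 in replicate 1 and 5.91 in replicate 2, so that the second fell just short of the minimum and no site was called. It was the only peak in the 137 kb between the 2 gene groups, in each replicate. The read-through genes Gm42416, Gm37013 and Gm37388, annotated across the cluster, had no peak at their starts.

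The gamma genes of types A and B had no peak over their first exons. Over 107 kb that hold the first exons of 18 genes from Pcdhga1 to Pcdhga12, neither Foxr2 replicate had a deposited peak, and the stretch without a peak reached 159 kb in replicate 1 and 155 kb in replicate 2. The distance from these 18 starts to the nearest peak of either replicate was never under 17197 bp, the value for Pcdhga1.

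The peaks began again shortly before the C-type gamma genes, with weak peaks that did not overlap between replicates. Relative to the start of Pcdhgc3 their summits lay at -2741 bp in replicate 1 (fold 3.53) and at -6397 and -5346 bp in replicate 2 (fold 3.29 each). Pcdhgc3, the first C-type gamma gene, had a fold of 7.07 in replicate 1 (15 fragments) and 8.54 in replicate 2 (25 fragments), with summits 205 and 410 bp after its start, inside the variable exon. Its site covers chr18:37805449-37808542. Among all genes with a peak at the start, 30.1% had a lower fold than Pcdhgc3 in replicate 1 and 37.7% in replicate 2. The antisense gene BC037039 overlaps the same stretch, and a peak list does not say to which of the 2 a fragment belongs. Pcdhgc4 and Pcdhgc5 had no peak within 1 kb in any library, and their nearest peaks were 6353 and 3780 bp away.

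The strongest site of the cluster lay beside the first shared exon of the gamma genes and at no start of a member. It covers chr18:37823299-37826830 and takes in the first gamma constant exon, chr18:37825021-37825079, which every gamma transcript can use. The fold was 16.8 in replicate 1 (37 fragments) and 16.4 in replicate 2 (49 fragments). The summits were 50 bp apart, 249 and 299 bp before the exon, in the intron that follows Pcdhgc5. By the lower of its 2 folds the site exceeded 89.5% of the 11947 reproducible sites of the genome. The transcript Gm38182, annotated as a processed transcript, also overlaps it.

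Another site lay over the end of the gamma genes, at chr18:37840551-37842813. It overlaps the last gamma constant exon, which holds the end of the coding sequence and the 3′ UTR. The fold was 11.5 in replicate 1 (25 fragments) and 13.8 in replicate 2 (41 fragments). Both summits lay beyond the last base of the gamma genes, by 662 bp in replicate 1 and 109 bp in replicate 2, and before the end of Diaph1, a formin gene on the other strand. It exceeded 70.3% of all sites.

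**Figure D2:**
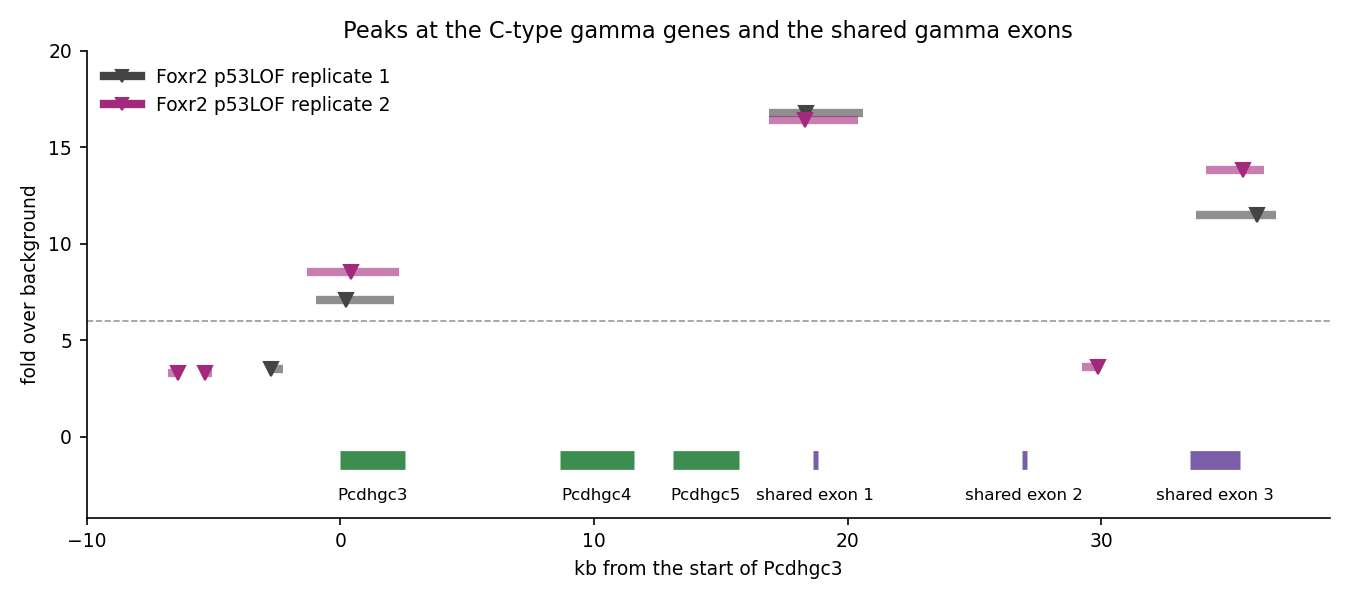
Bars show each peak of the Foxr2 p53LOF replicates from end to end, at the height of its fold over background, and triangles show its summit. Below, green boxes are the variable exons of the C-type gamma genes and purple boxes the exons that all gamma genes share. The dashed line is the minimum fold of 6, and the highest pair of peaks stands at shared exon 1.

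Across the whole cluster, 913 kb, each Foxr2 replicate had 12 deposited peaks, and each control replicate had none. Over all chromosomes control replicates 1 and 2 had 0.0948 and 0.0317 peaks per Mb, so few that a count of 0 here was nearly fixed beforehand. The difference of 12 peaks had an exact two-sided permutation p of 0.333, again the smallest possible. In each replicate 8 of the 12 peaks overlapped a peak of the other and 4 did not. The 4 that stood alone were weak, with folds from 3.53 to 4.86 in replicate 1 and from 3.29 to 3.94 in replicate 2. In each replicate 4 of 12 peaks (33.3%) passed the filters, against 42.1% and 38.5% of all peaks of the 2 libraries. There were 5 peaks in replicate 1 and 6 in replicate 2 whose fold was under 4.08, the lowest in either control list, so that the controls give no measure of background for peaks this weak.

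The cluster as a whole was not empty of peaks. Its 13.1 peaks per Mb in each replicate compare with 9.97 and 11.1 per Mb on chromosome 18 and with 12.0 and 14.6 per Mb over all chromosomes. Its 3 sites amount to 3.29 per Mb, against 3.58 on chromosome 18 and 4.51 over all chromosomes. All 3 lie within chr18:37805449-37842813, the last stretch of the cluster, and the rest of the cluster held no site. The last of them has both summits beyond the last base of the gamma genes. The 500 kb upstream held 17 and 20 peaks and 8 sites, and the 500 kb downstream held 23 peaks in each replicate and 10 sites, without the site at the gamma end, which is counted in the cluster. These densities are descriptions of single regions and were not tested.

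**Figure D3:**
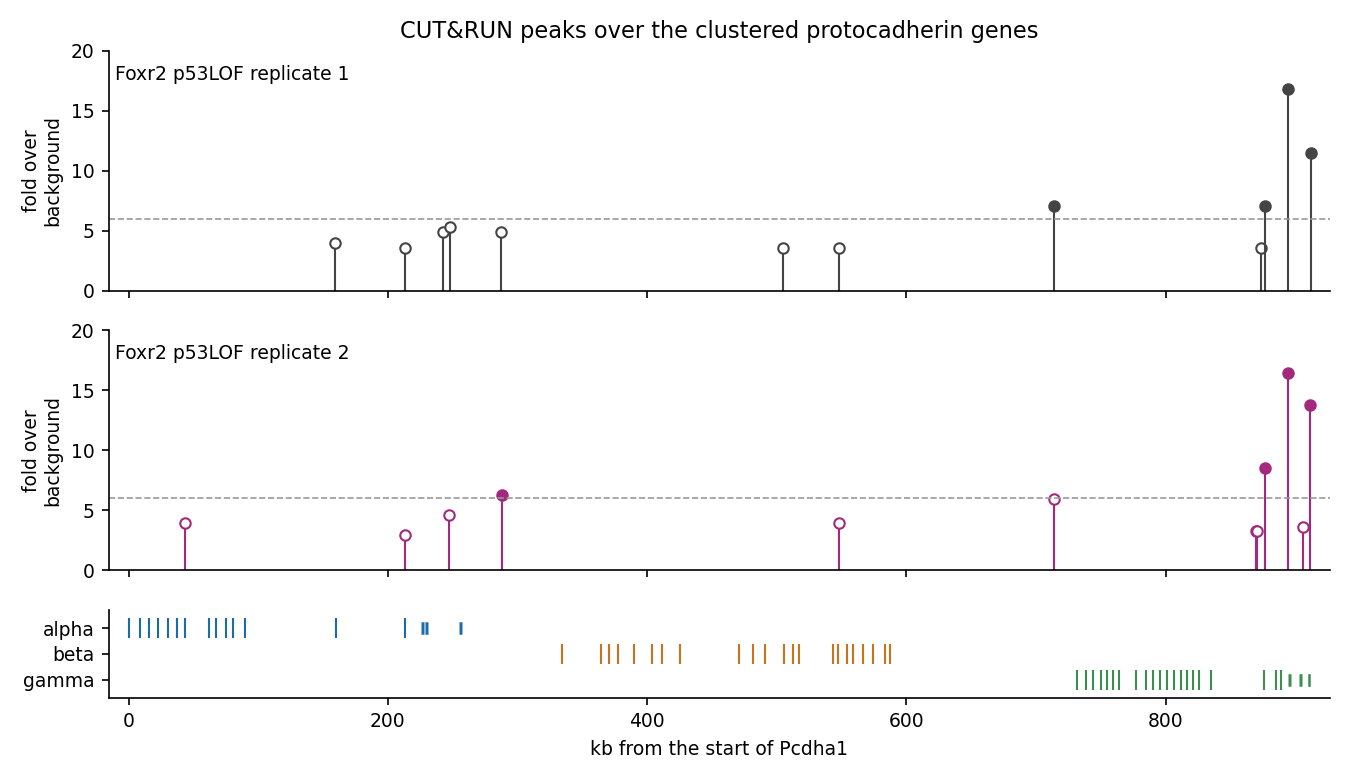
Each stem is a peak of Foxr2 p53LOF replicate 1 (top) or 2 (middle), placed by its summit in kb from the start of Pcdha1, with its fold over background as height. Filled circles passed the filters, and the dashed line is the minimum fold of 6. The lowest panel marks the starts of the alpha, beta and gamma genes (ticks) and their constant exons (short bars). The highest peaks of both replicates lie at the right-hand end, and no peak lies over the first 18 gamma starts.

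The genes on either side had sites at their starts. Upstream, Hars and Hars2, histidyl-tRNA synthetases with a shared start region, had folds of 7.51 and 11.8 in replicates 1 and 2, and Zmat2 had 7.95 and 6.90. Downstream, Diaph1 had 7.95 and 12.2, and Hdac3, a histone deacetylase, and Rell2 shared a site with 8.84 and 8.87. These 6 genes thus rest on 4 sites, and the share with a site was 42.3% over the other genes of chromosome 18.

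Base composition varied among the members. The 2 kb around a start had a GC content between 38.8% and 54.8% (median 42.9%), whereas the median was 51.4% over the other protein-coding genes, 54.5% for those with a site and 48.6% for those without. The ratio of observed to expected CpG, which is high in CpG islands, ran from 0.138 to 0.835 with a median of 0.483, close to the 0.478 of the other genes. It was 0.641 in the alpha genes, 0.335 in the beta genes and 0.513 in the gamma genes (medians). Pcdhgc3 had the highest ratio of all 57, 0.835. The 5 C-type genes were the richest in GC, from 50.2% to 54.8%, while no other member exceeded 47.2%.

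**Figure D4:**
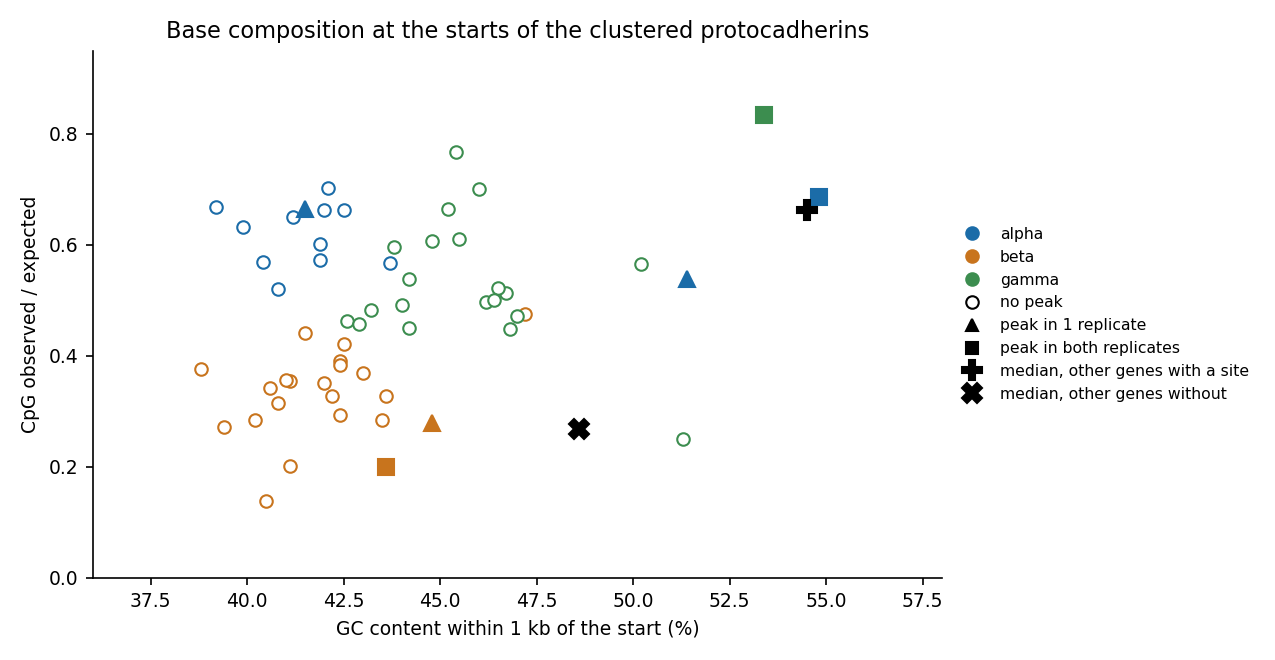
Each symbol is one of the 57 genes, by the GC content (%) and the observed over expected CpG ratio of the 2 kb around its start. Colour gives the gene group and shape the number of Foxr2 replicates with a peak within 1 kb. The black plus and cross are medians of other genes with a site (54.5%, 0.663) and without one (48.6%, 0.269). Pcdhgc3 is the green square at the top.

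The share of other genes with a site rose with both measures. It was 6.88% of 2543 genes at a GC content from 40 to 45%, the band that holds 37 members, none with a site. At CpG ratios from 0.6 to 0.8 it was 68.2% of 5645 genes, and 0 of the 14 members in that band had one. At a ratio of 0.8 or more it was 80.5% of 1871 genes, and the single member there, Pcdhgc3, had one. The members were therefore set beside the other genes that fall in the same range of both measures, kind by kind.

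For Pcdha1 to Pcdha12 there were 46 such genes, of which 50.0% had a site and 73.9% a peak in both replicates, against 0 of 12 members for both. For the gamma genes of types A and B there were 549, with 58.5% and 78.7%, against 0 of 18 members for both. For the beta genes, where the CpG ratio is low, the 2747 other genes had a site in 7.28% and a peak in both replicates in 12.3%, against 0 and 1 of 22 members. For the C-type genes the 4328 other genes had 54.3% and 70.4%, against 1 and 2 of 5 members. Each range runs between the extremes of a kind, as from 0.251 to 0.835 in CpG ratio for the C-type genes. The other genes were not matched to the members within it. The gap to genes in the same range was thus widest in the alpha genes and in the gamma genes of types A and B, and small in the beta genes. These shares are descriptions, and no test was made on them.

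**Figure D5:**
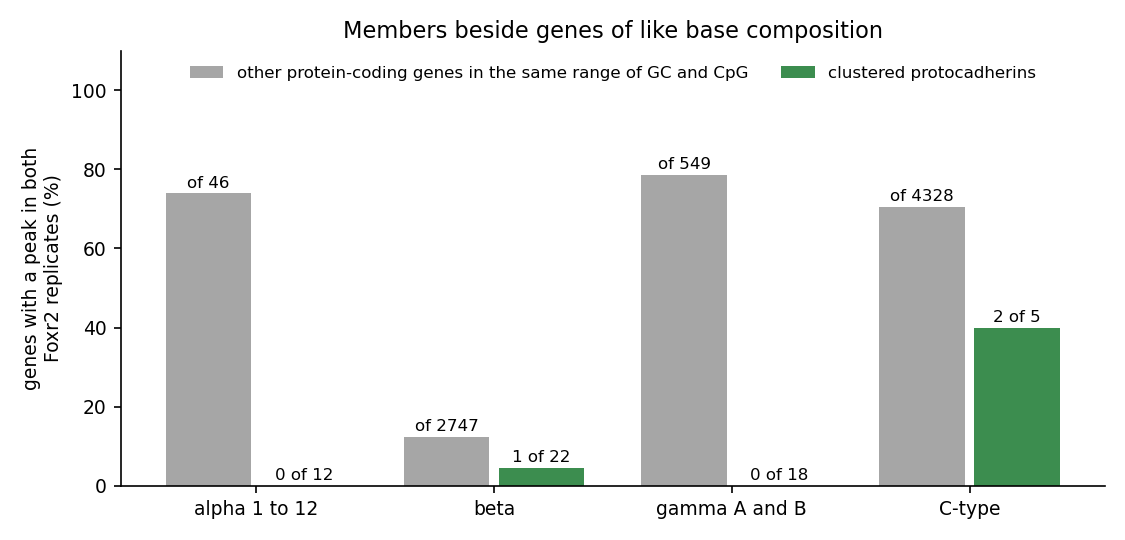
Green bars give the percentage of clustered protocadherins of each kind with a peak in both Foxr2 replicates within 1 kb of the start, with their numbers. Grey bars give it for the other protein-coding genes within the same range of GC content and CpG ratio, with the number of genes in that range. The members stand at 0 of 12, 1 of 22, 0 of 18 and 2 of 5.

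Members resemble each other in sequence, and a read from a repeated stretch cannot be placed with certainty. The share of 50-base stretches in the 2 kb around a start that occur again in the assembled chromosomes had a median of 1.18% and reached 17.9%, at Pcdha7. By kind the median was 8.71% in Pcdha1 to Pcdha12, 0.564% in the gamma genes of types A and B and 0 in the beta and C-type genes. It was 0 for 25 members, the 5 C-type genes among them, and over 10% for 9. On the other genes of chromosome 18 the median was 0, and 16 of 454 were over 10%. Thus at least 82.1% of the stretches at every start were unique, and the part that repeated sequence has in the missing peaks was not tested.

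The letters CCGGAAGT, a binding sequence of ETS factors, were searched on both strands. They were in 0 of the 57 windows of 2 kb, in 8.58% of such windows of all genes and in 1.74% of the 200 bp windows at site summits. The last share comes from much shorter windows, so it cannot be set against those of the 2 kb windows. The letters AGGGGGC, part of the sequence bound by CTCF, were in 8 of 57 windows (14.0%), those of Pcdha2, Pcdhac2, Pcdhb6, Pcdhb8, Pcdhb10, Pcdhb18, Pcdhgc3 and Pcdhgc5, and in 36.3% of windows of all genes. Most of these letters are G or C, and the median GC content was 42.9% in the members and 51.4% in the other genes. The part that base composition has in these shares was not tested. A match is a string of letters and not a bound site.

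Many genes that act on the cluster had sites at their own starts. Of 15 regulators of protocadherin choice, 11 (73.3%) had a reproducible site, against 37.3% of all protein-coding genes, and none had a control peak. The starts of these genes were rich in CpG, with a median ratio of 0.837, and 10 of the 15 had a ratio of 0.8 or more, the band in which 80.5% of other genes had a site. Ctcf, which encodes the insulator protein, had folds of 26.5 and 29.2 in replicates 1 and 2. Trim28, a corepressor, had 23.4 and 24.0. The cohesin genes Rad21, Smc1a, Smc3 and Stag1 had sites, and so did the loading factor Nipbl, whose summits lay at -1998 and -1878 bp from its start, the release factor Wapl, the chromatin protein Smchd1, the methyltransferase Setdb1 and the DNA methyltransferase Dnmt1. Stag2 had peaks of 5.30 and 7.23 and Dnmt3a of 4.42 and 5.26, neither of them a site, and Wiz and Dnmt3b had no peak. The Stag2 summit in replicate 2 and the Dnmt3a summit in replicate 1 lay 1595 and 1098 bp after the start.

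The 12 non-clustered protocadherins, related adhesion genes outside the cluster, had a site at 4 starts (33.3%), against 37.3% of all genes. Their median CpG ratio was 0.616, with 6 of the 12 in the band from 0.6 to 0.8, in which 68.2% of other genes had a site, and 1 at 0.8 or more. Pcdh7 had folds of 8.39 and 9.20 (its summit in replicate 2 was at -2536 bp), Pcdh8 of 7.07 and 9.20, Pcdh9 of 10.6 and 13.1 and Pcdh18 of 9.72 and 7.88. Pcdh10 had strong peaks, with folds of 15.5 and 16.8, that were dropped because they were 10955 and 12022 bp long. Pcdh17 had 13.7 and 10.2, with summits 1514 and 1090 bp after its start, outside the 1 kb window, and its replicate 2 peak was 14967 bp long. Pcdh19 had weak peaks of 3.98 and 3.29, and Pcdh1, Pcdh11x, Pcdh12, Pcdh15 and Pcdh20 had none. In all, 7 of the 12 had a peak in both replicates, beside 48.9% of all protein-coding genes.

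Of 15 partners and signalling proteins of clustered protocadherins, 11 (73.3%) had a site, against 37.3% of all genes. Their median CpG ratio was 0.679, and 7 of the 15 lay in the band from 0.6 to 0.8, in which 68.2% of other genes had a site, and 5 at 0.8 or more. They include the kinases Ptk2 (13.7 and 15.1) and Fyn (9.72 and 11.2, its replicate 2 summit 1456 bp after the start). The GTPase Rac1 (7.51 and 7.56) and Wasf1 (11.5 and 12.2) of the WAVE complex that governs actin are also among them. Abi1, Abi2 and Brk1 of the same complex had sites as well, while Cyfip1 had folds of 4.86 and 6.57 and no site. Cyfip2 (20.3 and 33.8) and Nckap1 (6.19 and 7.56), also of that complex, had sites that covered the start, with the summits outside the 1 kb window. The Cyfip2 summits lay 2737 and 2711 bp inside the gene and those of Nckap1 1525 and 1213 bp. Nlgn2, a synaptic adhesion gene, had the highest folds of the list, 36.7 and 45.3, and Axin1 had a site. Nlgn1 had a weak peak in replicate 2, its summit 1392 bp after the start, and Ptk2b and Ret had none. All 3 lists are short, and none of their shares was tested.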

How the data were processed

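CUT&RUN with a V5 antibody was analysed in 2 Foxr2 p53LOF and 2 V5 control libraries, grouped and numbered by the labels. The authors processed reads with the GenPipes ChIP-seq pipeline. Tools named in the submitters' processing notes are Trimmomatic 0.39, BWA 0.7.17, Picard 2.26.6, HOMER 4.11 and MACS2 2.2.7.1, with build mm10. Peaks were called per library, and no input or control library is named for the calling. The deposited fold enrichment is a ratio that the authors made with MACS2: fragments at the summit plus 1 over the background plus 1. The deposited −log10 p-value and −log10 q-value come from the same caller, and the score, deposited as whole numbers, restates the −log10 q on a scale of 10 to 1 in at least 99.0% of the peaks of each library. The deposited summit is an offset from the peak's start. Peak lists show no read totals, so precision was read from fragments at a summit. The background of each library (1.26, 2.04, 1.69 and 0.643 for Foxr2 replicates 1 and 2 and controls 1 and 2) was recovered as the value at which folds give whole fragments within 0.02. This held for 96.0% of folds, rounded, in the library where the share was lowest. A fold above 6 then needs 13, 18, 16 and 9 fragments.

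The filters are those of the authors' methods, with an overlap of at least 10 bp for a control peak, and sites share at least 1 bp. The authors also intersected peaks with open chromatin, which was not used here. A gene's start is that of its protein-coding transcript with the longest coding sequence. GC, CpG ratio, repeats and letters were read from GRCm38. Counts per library were compared by an exact two-sided permutation test. Python 3.11.15, numpy 2.4.6, pandas 2.3.3 and SciPy 1.17.1 were used. The recovery of the background, the shared stretches and the calling of genes with a site were tested on simulated data, and the other steps were not.

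Named genes are the members with a peak of any library within 1 kb, the 5 C-type members, protein-coding genes among the members and the nearest 3 on either side, the members nearest to a peak among those without one, and 3 lists (regulators, non-clustered protocadherins, partners). The members, lists, filters and letters were chosen with earlier results of these data known. The comparison within ranges of GC and CpG was added after the data were seen. The alternatives were the window, the start used, the minimum fold and q, the control overlap, the length limit, the shared overlap and leaving out each replicate.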

Additional observations from a re-analysis of the deposited data

How the results depend on the processing

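The number of clustered protocadherins with a site, 1 (Pcdhgc3) of 57, became 2 with a window of 5 kb (Pcdhgc3 and Pcdhgc5), 3 with no minimum on fold or q (Pcdhac2, Pcdhb16 and Pcdhgc3), and 0 with a minimum fold of 10 or a minimum −log10 q of 10. It was 1 under each of the other settings, also without replicate 1 or without replicate 2. The share of all protein-coding genes with a site, 37.3%, was 38.0% with a window of 2 kb, 40.0% with 5 kb, 39.3% with any transcript start, 34.7% with the summit in the window, 41.0% with no minimum fold, 18.7% with a minimum fold of 10, 31.7% with a minimum −log10 q of 10, 48.2% with no minimum on fold or q, and 39.8% to 41.5% with 1 replicate left out. The share among the members was below that of all genes under each of these settings.

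The difference in members with a peak, 4.5, ranged from 4 to 5 when each library was left out in turn, and the difference in cluster peaks stayed at 12. With the replicate block, which pairs libraries by number, both exact permutation p-values were 0.5, the smallest that 2 pairs allow. The numbers link no source or day, so they were not taken as pairs. Neither design can pass a threshold of 0.05, and these p-values say nothing about stability. With only peaks above a fold and −log10 q of 6, the difference in members was 1 and that in cluster peaks 4.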

Other observations

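In replicate 2, the peaks at Pcdha7 and at Pcdhb16 both began at exactly the first base of the annotated variable exon. Apart from these, 3 peaks of replicate 2 and 1 peak of replicate 1 began at the first base of a start of a plus-strand gene. At places 20 to 50 bp to either side the mean number of peaks was 1.12 in replicate 2 and 1.88 in replicate 1, so that the count in replicate 1 was not above it. This was noticed after the values were seen.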
